A study of Saccharomyces cerevisiae with 12 samples.

Results

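Budding yeast labelled as lacking EPL1 and SDS3 were compared with wild type (WT) by RNA sequencing of rRNA-depleted total RNA. The comparison rested on 6 of the series' 12 libraries, the 3 titled epl1∆ sds3∆ and the 3 titled WT, and on every gene or RNA whose RPKM averaged 1 or more across all 12. RPKM is the number of reads of a gene, set relative to its length and to the reads of its library. Of 7126 deposited rows, 5956 passed that minimum, of which 5532 were protein-coding genes. The rows nearest to the minimum were tF(GAA)P2, a tRNA, averaging 1.0004 RPKM, which was kept, and YGL199C, with 0.998 RPKM, which was not.

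All strains were MATα haploids of the W303 background, with ura3-1, trp1-1, his3-11, ade2-1, a leu2 allele and can1-100 as markers, as given for WT. The libraries labelled epl1∆ sds3∆ came from a strain written as epl1∆::kanMX sds3∆::natMX, in which drug-resistance cassettes replace both genes. Cells were in mid-log growth in synthetic complete (SC) medium at 24 °C. Neither group carries another deletion, the labels do not say whether a group is more than 1 clone, and no libraries labelled sds3∆ alone were analysed here, so the effects of the deletions cannot be told apart. Libraries labelled esa1∆ sds3∆ (esa1∆::HIS3 sds3∆::natMX) and esa1∆ epl1∆ sds3∆ (the same HIS3 and natMX alleles with epl1∆::kanMX), with 3 libraries each, are used only in the last comparison. The labels call the replicates biological triplicates.

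EPL1 encodes a scaffold subunit of NuA4 and of piccolo-NuA4, complexes that acetylate histones H4 and H2A and whose catalytic subunit is Esa1. SDS3 encodes a subunit of the large Rpd3 histone deacetylase complex, which removes such marks and is recruited by factors such as Ume6, the DNA-binding repressor of early meiotic genes. EPL1 is essential in ordinary strains, and loss of SDS3 lets cells live without it. These were bulk cultures, so more transcripts per cell and more cells with a transcript cannot be told apart.

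EPL1 followed its label, with 0.200, 0.194 and 0.216 RPKM in the libraries labelled epl1∆ sds3∆ against 3.52, 2.18 and 3.03 RPKM in the WT libraries. SDS3 did not. It had 5.50, 4.80 and 5.50 RPKM in the libraries labelled epl1∆ sds3∆ against 8.94, 8.50 and 9.35 RPKM in the WT libraries. That level goes against the sds3∆ label, so the libraries are called by their label throughout, and values per gene do not show which part of SDS3 the reads covered. Each library labelled epl1∆ sds3∆ had 8089179 to 10314855 reads behind its values, and each WT library 13071781 to 14390732. Small nucleolar RNAs (snoRNAs) took 25.8% to 26.4% of the reads in the libraries labelled epl1∆ sds3∆ and 15.9% to 16.8% in the WT libraries, so that protein-coding genes took 54.1% to 56.0% against 64.6% to 65.5%. All levels below are RPKM divided by a scaling factor per library, 0.914 to 0.983 in the libraries labelled epl1∆ sds3∆ and 1.02 to 1.22 in the WT libraries. Without those factors the median log2 fold change over all rows was -0.24, against -0.01 with them, and changes are relative to that median.

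Fold changes are log2 ratios of RPKM + 1 in the libraries labelled epl1∆ sds3∆ over WT, and adding 1 makes those of low genes too small. A row was called changed at a Benjamini-Hochberg adjusted p under 0.05 in limma's moderated test, two-sided. By that rule 3577 of the 5956 rows changed (60.1%), 1792 rising (30.1%) and 1785 falling (30.0%), and these shares are the background for every count below. With RPKM as deposited, 1171 rose and 2560 fell. At least 2-fold changes on this scale were fewer, 550 rising (9.23%) and 348 falling (5.84%). The 3 libraries of one group lay beyond the 3 of the other for 3659 rows (61.4%).

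**Figure D1:**
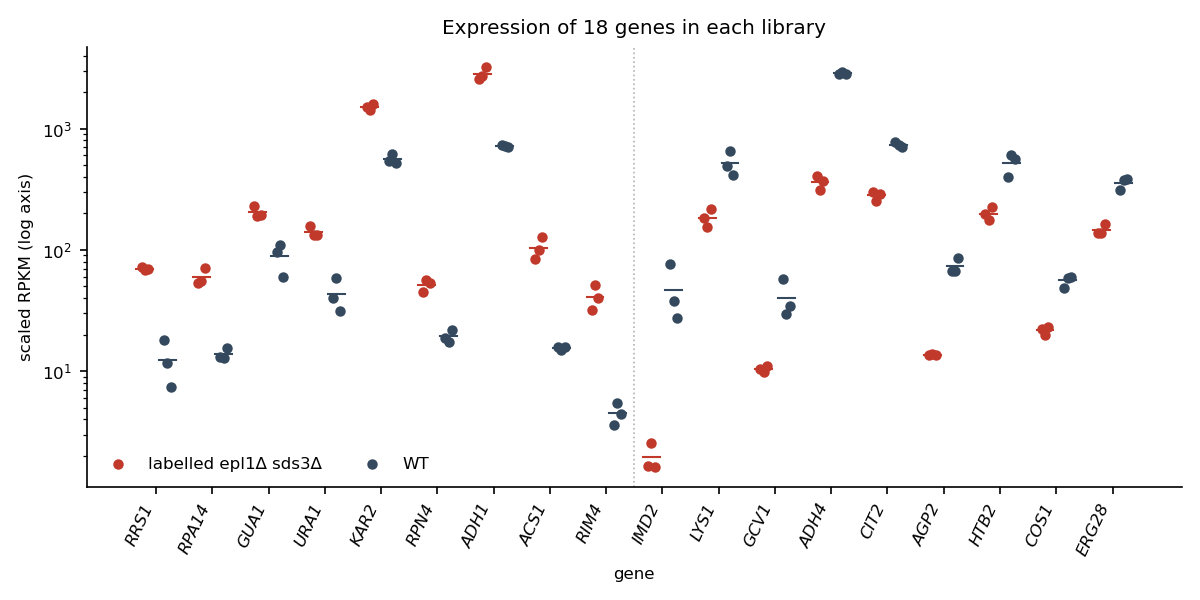
Scaled RPKM (log axis) of 18 genes described in the text, with 1 point for each of the 3 libraries labelled epl1∆ sds3∆ (red, left) and the 3 WT libraries (dark, right) and a bar at the group mean. The 9 genes left of the dotted line rose and the 9 right of it fell, and in all 18 the groups do not overlap: RRS1 lies at 68.3 to 72.3 RPKM in the libraries labelled epl1∆ sds3∆ and at 7.42 to 17.9 RPKM in the WT libraries.

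Genes for building ribosomes rose as a group, from the polymerase that makes rRNA to the factors that assemble both subunits. RNA polymerase I, with its initiation factors, had 15 tested genes, of which 11 rose and none fell (median log2 fold change 0.91). Of the small subunit processome, the particle that processes the 18S part of the rRNA precursor, 43 of 45 genes rose and none fell (median 1.00). Of the factors that assemble the large subunit, 54 of 57 rose and none fell (median 1.18). With RPKM as deposited these medians, in the same order, were 0.68, 0.76 and 0.95. Without WT replicate 3 they were 0.87, 0.76 and 0.92, and without WT replicate 1 they were 1.10, 1.16 and 1.40. In the large subunit list 1 gene fell with RPKM as deposited, and 1 without WT replicate 3. These lists were chosen with earlier results on ribosome genes known, so the counts are a description.

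RRS1, which recruits 5S rRNA to the growing large subunit, had 72.3, 68.3 and 69.8 RPKM in the libraries labelled epl1∆ sds3∆ against 17.9, 11.7 and 7.42 RPKM in the WT libraries. Every library labelled epl1∆ sds3∆ was far above every WT library, while the WT libraries differed among themselves by more than 2-fold. Its log2 fold change was 2.49 with a standard error of 0.22 (limma adjusted p = 1.16e-06). SSF1 (25.9 ± 3.62 against 6.14 ± 2.49 RPKM, SD, n = 3 each), RLP24 and YTM1 are further large-subunit assembly factors, with log2 fold changes of 1.97, 1.86 and 1.80. In the processome, the helicase gene DHR2 reached 11.5 ± 1.25 RPKM in the libraries labelled epl1∆ sds3∆, against 2.21 ± 0.893 RPKM in the WT libraries, and ENP2, UTP11 and LCP5 rose by 1.80, 1.55 and 1.55.

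Within RNA polymerase I, the small subunit gene RPA14 had 53.5, 55.6 and 70.6 RPKM in the libraries labelled epl1∆ sds3∆ against 13.0, 12.8 and 15.5 RPKM in the WT libraries. The groups are far apart and the log2 fold change was 2.04 (standard error 0.13, limma adjusted p = 1.15e-07). The largest subunit, RPA190, had a smaller difference, with 63.7 ± 5.21 RPKM against 29.9 ± 8.77 RPKM. RRN3, the factor that readies the polymerase for initiation, had 13.2 ± 0.593 against 3.58 ± 1.37 RPKM, and RRN11, of the core factor, rose by 1.74. The 4 members that did not pass, RRN5, RRN9, RRN10 and UAF30, are all of the upstream activating factor that binds the rDNA promoter, and their log2 fold changes ran from 0.07 to 0.31. Of RNA polymerase III and its factors, 8 of 19 genes rose and 2 fell (median 0.30). The median was 0.08 with RPKM as deposited, when 4 fell, 0.17 without WT replicate 3 and 0.19 without replicate 2 labelled epl1∆ sds3∆. Its members moved apart, with RPC37 and RET1 rising by 1.46 and 1.37 and TFC3, of the factor that binds tRNA genes, falling by 0.76.

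The guide-RNA machinery moved the same way. Of the proteins of box C/D and H/ACA snoRNPs, which modify rRNA, 13 of 17 rose and none fell (median 0.65, or 0.41 without WT replicate 3), with NAF1, BCD1 and NOP10 at 1.45, 1.31 and 1.29. Of 75 tested snoRNAs, 63 rose and none fell (median 1.05, or 0.79 with RPKM as deposited). SNR8, one of the H/ACA guides, had 6507, 8112 and 9116 RPKM in the libraries labelled epl1∆ sds3∆ against 1765, 2147 and 2062 RPKM in the WT libraries, without overlap. Of the cytosolic ribosomal protein genes 116 of 137 rose and none fell (median 0.67), against 98 and 2 with RPKM as deposited (median 0.41) and 86 and 6 with quantile normalization (median 0.34). Of those with an intron 79 of 89 rose (median 0.69) and of those without one 37 of 48 (median 0.63), a difference that was not tested. RPS17B reached 925 ± 72.6 RPKM, against 253 ± 73.6 RPKM in the WT libraries. Among the other 165 genes with introns 45 rose and 54 fell.

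The 300 bases before the start codon of RRS1 and RPA14 are printed because these genes carry, close together, both short elements found before many ribosome-assembly genes, the PAC element (core GATGAG) and the RRPE (core AAAATTTT). Each is given 5′ to 3′ toward its start codon, from the R64 genome of NCBI RefSeq, with every match on either strand in capitals. The RRS1 window is chrXV:868040-868339 (plus strand) and the RPA14 window is chrIV:769225-769524 (plus strand).
RRS1: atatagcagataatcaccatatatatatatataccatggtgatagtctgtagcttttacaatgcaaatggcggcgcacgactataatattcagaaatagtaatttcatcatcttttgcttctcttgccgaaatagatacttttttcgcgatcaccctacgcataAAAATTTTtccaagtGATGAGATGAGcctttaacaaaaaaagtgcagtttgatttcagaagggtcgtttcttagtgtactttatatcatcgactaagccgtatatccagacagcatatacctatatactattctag
RPA14: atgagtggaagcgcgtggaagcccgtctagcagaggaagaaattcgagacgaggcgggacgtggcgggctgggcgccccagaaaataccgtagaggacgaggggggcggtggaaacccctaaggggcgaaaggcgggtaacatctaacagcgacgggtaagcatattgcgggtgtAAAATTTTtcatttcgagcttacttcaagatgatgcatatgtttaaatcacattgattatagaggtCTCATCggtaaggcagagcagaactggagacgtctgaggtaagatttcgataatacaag

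In RRS1 a pair of overlapping PAC matches ends 111 bases before the start codon and the RRPE match 129 bases before it. In RPA14 the PAC match, on the other strand, ends 54 bases and the RRPE match 118 bases before it. Both strands of 5987 such windows were searched. The PAC core was in 52 of 57 windows of the large subunit assembly list, 39 of 45 of the processome list and 11 of 15 of the RNA polymerase I list, against 19.1% of all windows. Over all tested genes, those whose window holds the PAC core rose in 513 of 1033 cases and fell in 194 (median 0.33), and those without it rose in 1101 of 4482 and fell in 1546 (median -0.09). With both elements, found in 4.46% of windows, 183 of 265 genes rose and 20 fell (median 0.78). Outside the ribosome and polymerase lists, 95 of 170 genes with both rose and 20 fell (median 0.43). A match is a description of the letters, not of a bound site.

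**Figure D2:**
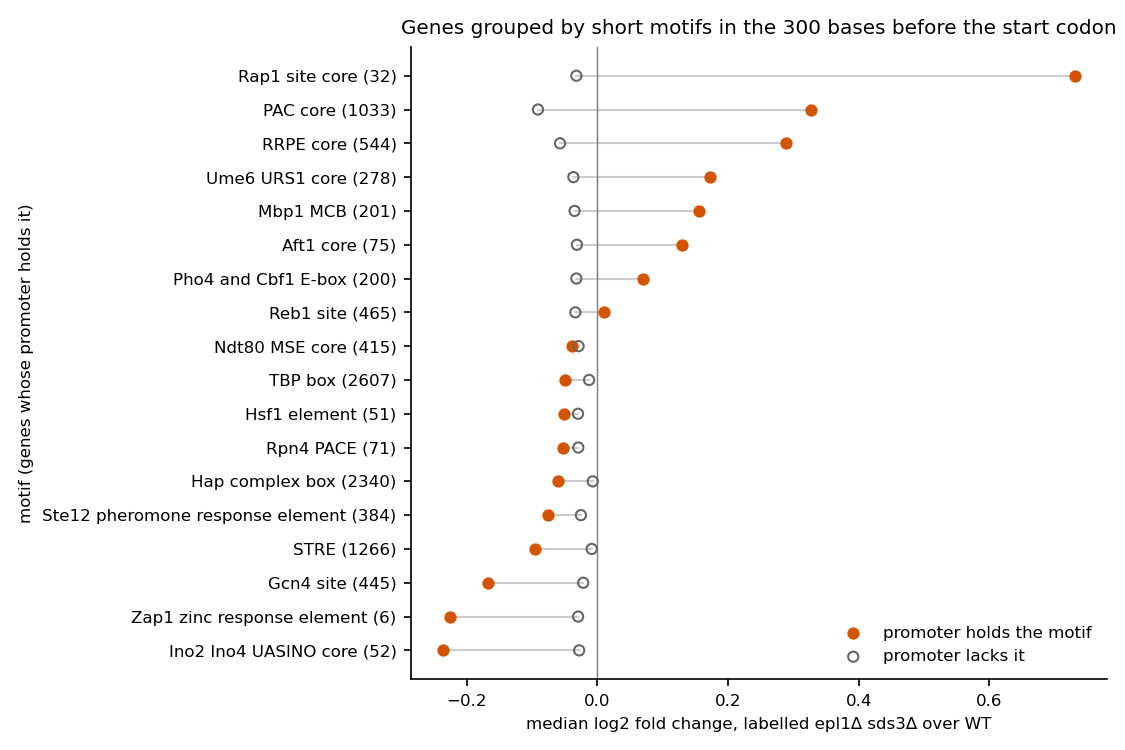
Median log2 fold change (labelled epl1∆ sds3∆ over WT, horizontal axis) of tested genes whose 300 bases before the start codon hold each of 18 short motifs (filled points, number of genes in brackets) and of those that lack it (open points). Holders of the Rap1 core (32 genes, median 0.73), the PAC core (0.33) and the RRPE core (0.29) lie highest, and holders of the Ino2 Ino4 core (52 genes, -0.24), the Zap1 element (6 genes, -0.23) and the Gcn4 site (-0.17) lowest.

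The Rap1 core (ACCCATACA), bound by an activator of ribosomal protein genes, was held by 32 tested genes, of which 21 rose and 4 fell (median 0.73), and outside the ribosome and polymerase lists 13 of 24 rose and 4 fell (median 0.38). The Gcn4 site (TGACTC), bound by the activator of amino acid synthesis, was held by 445 tested genes, of which 101 rose and 166 fell (median -0.17). The MCB box (ACGCGT) of G1 and S phase genes was held by 201, of which 72 rose and 43 fell (median 0.16), and the stress element (AGGGG) by 1266, of which 298 rose and 452 fell (median -0.10). The TATA box (TATAAA) was held by 2607, of which 738 rose and 876 fell (median -0.05). These sets overlap, and the medians without each motif lay between -0.09 and -0.01.

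Nucleotide synthesis split by pathway. Of the 9 genes of de novo pyrimidine synthesis, 6 rose and none fell (median 0.41). URA1, the dihydroorotate dehydrogenase, had 157, 132 and 133 RPKM in the libraries labelled epl1∆ sds3∆ against 40.3, 58.9 and 31.4 RPKM in the WT libraries, and URA7, a CTP synthetase, had 68.9 to 96.6 against 16.5 to 38.9 RPKM. Their log2 fold changes were 1.71 and 1.48, with no overlap between groups for either, and with RPKM as deposited 3 of the 9 rose and 2 fell. URA3 did not pass, with 15.8 ± 1.51 against 15.6 ± 1.05 RPKM.

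Of 11 genes of de novo purine synthesis none rose and 5 fell (median -0.48). ADE2 fell by 1.21 and ADE8 by 0.55. Without WT replicate 3 the count falling was 9, and with RPKM as deposited 10, while without WT replicate 1 the median was -0.23 and 1 gene rose. ADE2 carries the ade2-1 allele in WT. ADE1 depends on 1 library, since WT replicate 1 had 147 RPKM and the other WT libraries 53.1 and 46.1 RPKM, against 37.9 to 42.1 RPKM in the libraries labelled epl1∆ sds3∆.

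The guanine branch held the largest fall of any gene with at least 10 RPKM in its higher group. IMD2, an IMP dehydrogenase gene near a chromosome end whose transcript is known to fall when guanine nucleotides are plentiful, had 1.66, 2.54 and 1.63 RPKM in the libraries labelled epl1∆ sds3∆ against 76.1, 37.6 and 27.3 RPKM in the WT libraries. Its log2 fold change was -3.91 (standard error 0.32, limma adjusted p = 7.84e-07). The paralog IMD4 rose to 312 ± 31.6 RPKM, against 149 ± 31.5 RPKM in the WT libraries, and GUA1, which makes GMP, rose to 204 ± 22.1 RPKM, against 88.7 ± 26.2 RPKM. IMD3 did not pass, with 142 ± 16.6 against 186 ± 56.5 RPKM. The IMD genes are close copies, and how the counting treated reads shared between them is not given in the sources used here.

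Of the 8 lysine genes 7 fell and none rose (median -0.63). LYS1, the last enzyme of the pathway, had 183, 153 and 216 RPKM in the libraries labelled epl1∆ sds3∆ against 491, 652 and 410 RPKM in the WT libraries (log2 fold change -1.48). LYS9 fell to 754 ± 50.3 RPKM, against 1485 ± 294 RPKM in the WT libraries, and LYS2 and LYS20 fell by 0.95 and 0.64. Arginine synthesis moved in both directions, 3 of 9 genes rising and 3 falling (1 and 5 with RPKM as deposited), with ARG3 at -1.21 and ARG2 at 0.66. So did the branched-chain genes, 4 of 11 rising and 4 falling (2 and 6 with RPKM as deposited), with LEU9 at 1.04 and LEU2, a marker gene, at -1.09. With the scaling factors, the shares of both lists were near those of all rows.

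The glycine cleavage system, a mitochondrial complex that feeds one-carbon units to folate, fell in all its genes. GCV1 had 10.4, 9.87 and 11.1 RPKM in the libraries labelled epl1∆ sds3∆ against 57.0, 29.7 and 34.6 RPKM in the WT libraries. The groups did not overlap and the log2 fold change was -1.80 (limma adjusted p = 4.89e-06). GCV3, GCV2 and the shared subunit LPD1 fell by 1.53, 1.47 and 0.97. Of the other 9 one-carbon genes 3 rose, MIS1 by 0.71, and none fell. Over all 13 genes, 1 rose and 6 fell without WT replicate 3 or with RPKM as deposited, and 1 rose without replicate 1 or 2 labelled epl1∆ sds3∆. Of 18 amino acid permease genes 8 rose and 6 fell (median -0.05), or 3 and 10 with RPKM as deposited. The largest fall of that list was of AGP2, a regulator of carnitine and polyamine uptake. It had 13.6, 13.7 and 13.5 RPKM in the libraries labelled epl1∆ sds3∆ against 67.1, 67.4 and 85.2 RPKM in the WT libraries (log2 fold change -2.33). DIP5, for acidic amino acids, fell by 1.80, and TAT2, for tryptophan, rose by 0.69. Of the cytosolic aminoacyl-tRNA synthetases 10 of 21 fell and 3 rose (median -0.30, 15 and 1 with RPKM as deposited), WRS1 falling by 0.83.

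Zinc-responsive genes moved in both directions, and the direction differed between alcohol dehydrogenases. Of 24 genes linked to Zap1, the activator of the zinc-starvation response, 9 fell and 11 rose. With RPKM as deposited 12 fell and 4 rose, and without WT replicate 2 or replicate 3 labelled epl1∆ sds3∆ 6 fell. ADH4, an alcohol dehydrogenase made in zinc-poor cells, had 408, 314 and 370 RPKM in the libraries labelled epl1∆ sds3∆ against 2825, 2945 and 2805 RPKM in the WT libraries. ADH1, the main fermentative alcohol dehydrogenase, known to be turned down in zinc-poor cells, had 2567, 2724 and 3217 RPKM in the libraries labelled epl1∆ sds3∆ against 728, 721 and 700 RPKM in the WT libraries. The order of the pair was thus opposite in the 2 groups, with log2 fold changes of -2.98 and 1.98. ZPS1, a secreted zinc-regulated protein, fell to 88.6 ± 12.6 RPKM, against 907 ± 205 RPKM in the WT libraries, and DPP1 fell by 1.37. ZRT1, the high-affinity zinc transporter, fell by 0.52. ZAP1 itself did not pass, with 18.1 ± 2.54 against 20.5 ± 1.36 RPKM.

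Iron genes moved in both directions, in shares near those of all rows. Of 26 tested genes of iron uptake and use 8 rose and 7 fell (median 0.12, or -0.11 with RPKM as deposited). Without WT replicate 2 the counts were 11 and 3. FRE1, a plasma membrane ferric reductase, had 18.8, 21.0 and 13.9 RPKM in the libraries labelled epl1∆ sds3∆ against 2.56, 4.24 and 2.91 RPKM in the WT libraries. FTR1, the iron permease, had 125 ± 20.8 against 32.4 ± 13.6 RPKM. The log2 fold changes were 2.16 and 1.97. The reductases FRE2 and FRE3, which lie near chromosome ends, fell by 0.83 and 1.02. In the copper list CUP2 rose by 1.17 and the transporter CTR1 fell by 0.97.

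Phosphate genes were among the largest rises, with 14 of 25 rising and 5 falling (median 0.55). The median was 0.29 with RPKM as deposited, and 3 fell without WT replicate 1 or 2 or without replicate 1 or 3 labelled epl1∆ sds3∆. PHO5, the repressible acid phosphatase and a classic model of promoter chromatin, had 1411, 1253 and 1118 RPKM in the libraries labelled epl1∆ sds3∆ against 175, 164 and 86.2 RPKM in the WT libraries. PHO89, a sodium-phosphate cotransporter, had the largest log2 fold change of the rows with at least 10 RPKM in the higher group, 3.81. PHO11 and PHO12, acid phosphatase genes close to chromosome ends, fell by 0.64 and 0.88 at low levels. PHO11 had 0.818 ± 0.208 RPKM in the libraries labelled epl1∆ sds3∆ against 1.86 ± 0.674 RPKM in the WT libraries, and PHO12 4.17 ± 0.726 against 9.01 ± 3.74 RPKM. The window before PHO5, chrII:430952-431251 (minus strand), is printed with its match to the E-box bound by Pho4 and Cbf1 (CACGTG) in capitals. The match ends 248 bases before the start codon.
PHO5: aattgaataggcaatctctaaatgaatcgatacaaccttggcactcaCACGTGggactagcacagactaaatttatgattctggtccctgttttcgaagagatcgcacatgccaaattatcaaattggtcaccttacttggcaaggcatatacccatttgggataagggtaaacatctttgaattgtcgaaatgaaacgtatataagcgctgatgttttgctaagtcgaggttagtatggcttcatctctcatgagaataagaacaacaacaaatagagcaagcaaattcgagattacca

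The E-box was in 10 of the 25 windows of the phosphate list, against 3.56% of all windows. Over all tested genes 73 of 200 holders rose and 56 fell (median 0.07).

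Carbon metabolism split between acetate use and the central pathways. Of 18 genes of gluconeogenesis, the glyoxylate cycle and acetate use 10 rose and 3 fell (median 0.54). ACS1, an acetyl-CoA synthetase, had 83.8, 101 and 129 RPKM in the libraries labelled epl1∆ sds3∆ against 15.8, 14.9 and 15.8 RPKM in the WT libraries (log2 fold change 2.65). SIP4, a factor that activates gluconeogenic genes, rose by 2.48 and FBP1 by 1.46, while CAT8, another such activator, and PCK1 fell by 1.34 and 0.77. HXT5, a hexose transporter of slow-growing cells, averaged 115 RPKM in the libraries labelled epl1∆ sds3∆ and 15.9 RPKM in the WT libraries (log2 fold change 2.84), and HXT2 rose by 1.32.

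Of 24 genes of glycolysis and fermentation 12 fell and 6 rose (median -0.34, or -0.59 with RPKM as deposited and -0.69 with quantile normalization). FBA1, the aldolase, had 5986, 5613 and 6249 RPKM in the libraries labelled epl1∆ sds3∆ against 8816, 10376 and 7779 RPKM in the WT libraries. TDH2 fell by 0.71, and the minor isoenzymes PYK2 and ADH5 had log2 fold changes of -2.09 and -2.17. Of the 18 genes of the tricarboxylic acid cycle 10 fell and none rose (median -0.50), and all 18 fell with RPKM as deposited. CIT2, a citrate synthase of peroxisomes rather than of the mitochondrial cycle, was counted in this list and not in the glyoxylate list. It had 302, 252 and 290 RPKM in the libraries labelled epl1∆ sds3∆ against 782, 725 and 705 RPKM in the WT libraries (log2 fold change -1.39). The aconitase ACO1 fell by 1.33. Of 20 trehalose and glycogen genes 8 fell and 3 rose (median -0.28), GSY1, a glycogen synthase, falling by 1.68. The median depended on single libraries. Without WT replicate 3 it was 0.04, with 6 falling and 4 rising. Without WT replicate 1 it was -0.45, with 9 falling and 2 rising.

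**Figure D3:**
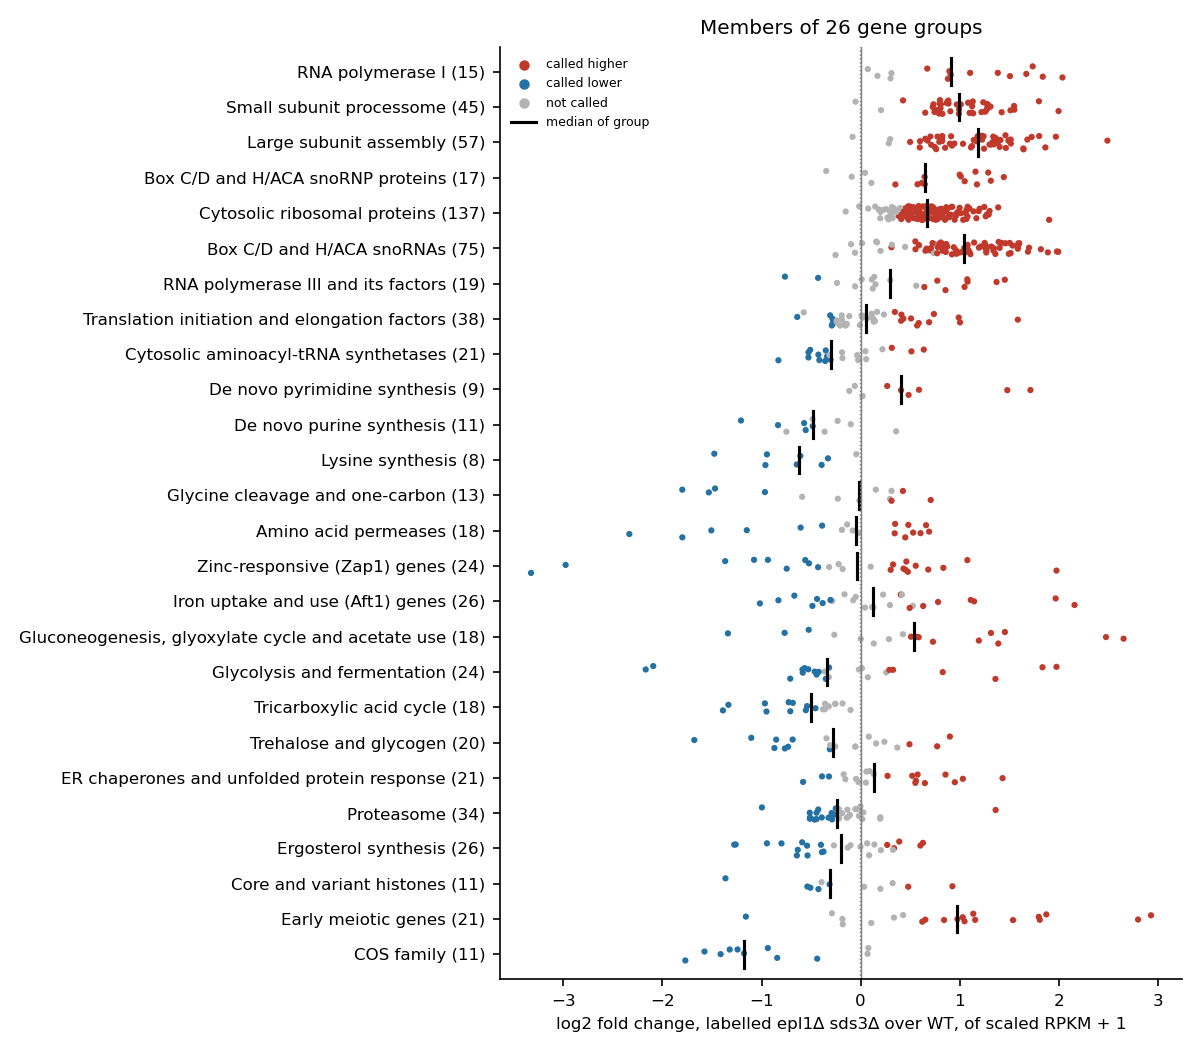
Log2 fold change (labelled epl1∆ sds3∆ over WT) of every tested member of 26 gene groups, with 1 point per gene, the number tested in brackets and a black bar at the median. Red points were called higher, blue points lower and grey points were not called. The ribosome and snoRNA groups lie to the right (large subunit assembly median 1.18), the tricarboxylic acid cycle (-0.50), lysine (-0.63) and COS (-1.18) groups to the left, and the zinc group spreads from -3.33 to 1.98.

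Transcripts of the mitochondrial genome rose while nuclear genes for mitochondrial proteins mostly did not. Of the 32 tested rows of the mitochondrial genome 23 rose and none fell (median 1.29, or 1.08 with RPKM as deposited). No nuclear chromosome had a median outside -0.20 to 0.08. COX3, a subunit of cytochrome c oxidase, had 2797, 3024 and 3339 RPKM in the libraries labelled epl1∆ sds3∆ against 1077, 1457 and 1190 RPKM in the WT libraries (log2 fold change 1.31). OLI1, subunit 9 of ATP synthase, had 8285, 8494 and 10719 RPKM against 4945, 6129 and 5855 RPKM in the WT libraries, and VAR1, the ribosomal protein made in mitochondria, rose by 1.35. COB, ATP6 and ATP8 did not pass, with log2 fold changes of 0.29, -0.30 and 0.50.

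Of the 12 mitochondrial tRNAs that passed the minimum 8 rose (median 2.01), and those that were low in WT passed only through the deletion groups. The serine tRNA tS(GCU)Q1 had 27.9, 23.9 and 25.2 RPKM in the libraries labelled epl1∆ sds3∆ against 3.60, 3.48 and 5.41 RPKM in the WT libraries. RPM1, the RNA of mitochondrial RNase P, which trims tRNA ends, rose by 1.37. The large mitochondrial rRNA, 21S_RRNA, is of a class that depletion targets, and its libraries spread widely, with 33.4, 39.6 and 68.3 RPKM in the libraries labelled epl1∆ sds3∆ against 13.9, 26.1 and 19.3 RPKM in the WT libraries. The intron rows AI1 (log2 fold change 1.72), AI2 (1.64) and AI5_BETA (1.84) overlap COX1 (0.87), so their reads cannot be told apart with certainty. AI3 (0.23) and AI4 (-0.10) overlap COX1 as well and did not pass. BI2, BI3 and BI4, which rose by 1.15, 1.00 and 0.54, overlap COB. The 32 rows of the mitochondrial genome are thus not all separate transcripts.

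Of the 68 nuclear genes for mitochondrial ribosomal proteins 47 fell and 1 rose (median -0.43), the opposite of the cytosolic ribosome. MRPL35 had 22.8, 22.9 and 23.4 RPKM in the libraries labelled epl1∆ sds3∆ against 47.6, 49.3 and 54.7 RPKM in the WT libraries (log2 fold change -1.10), and MRPS12 and MRPL28 fell by 1.15 and 1.13. Of 23 nuclear genes of complexes III and IV, cytochrome c and related carriers, 8 fell and 3 rose (median -0.20), or 14 and 0 with RPKM as deposited. Without replicate 1 of the libraries labelled epl1∆ sds3∆ 5 fell, and without their replicate 3 none rose. QCR2 fell to 76.6 ± 14.3 RPKM, against 158 ± 23.0 RPKM in the WT libraries, and COX6 fell by 0.94, while 5 of 17 ATP synthase genes rose and 3 fell (1 and 9 with RPKM as deposited, and 3 rose without WT replicate 1 or 2 or without replicate 2 or 3 labelled epl1∆ sds3∆).

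**Figure D4:**
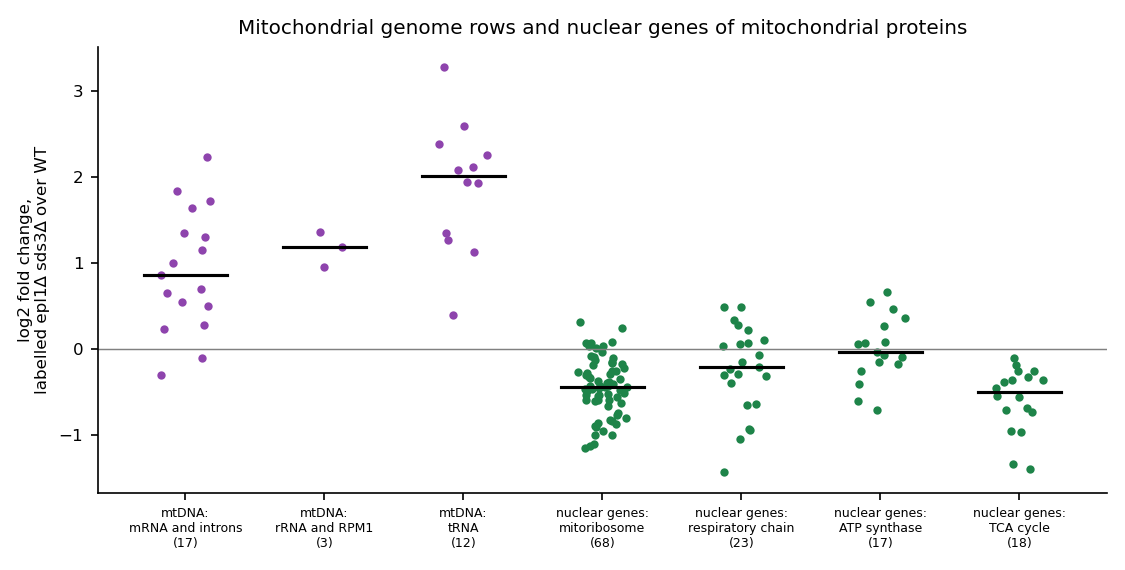
Log2 fold change (labelled epl1∆ sds3∆ over WT) of tested rows of the mitochondrial genome (mtDNA, purple) and of nuclear genes for mitochondrial proteins (green), 1 point per row with the median as a bar and the number in brackets. Mitochondrial mRNA and intron rows have a median of 0.87 and tRNAs of 2.01, and the mitoribosome and tricarboxylic acid cycle genes lie below 0 at medians of -0.43 and -0.50.

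Of 21 genes of endoplasmic reticulum chaperones and the unfolded protein response 10 rose and 3 fell (median 0.13, or -0.11 with RPKM as deposited, when 8 rose and 7 fell). KAR2, the lumenal Hsp70, had 1500, 1429 and 1592 RPKM in the libraries labelled epl1∆ sds3∆ against 540, 620 and 516 RPKM in the WT libraries (log2 fold change 1.43). The oxidase gene ERO1 rose by 1.03 and the exchange factor gene SIL1 by 0.95, while DER1 and HRD1, of the export pathway for misfolded proteins, fell by 0.58 and 0.39. Of 34 proteasome genes 17 fell and 1 rose (median -0.24), and 26 fell with RPKM as deposited. The riser was RPN4, the activator of proteasome genes, with 44.7, 56.8 and 53.6 RPKM in the libraries labelled epl1∆ sds3∆ against 18.9, 17.5 and 22.0 RPKM in the WT libraries. Its recognition element (GGTGGCAAA) was in 27 of the 34 proteasome windows, against 1.20% of all windows. PRE8, a subunit of the core particle, fell to 64.0 ± 7.26 RPKM, against 128 ± 9.28 RPKM in the WT libraries.

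In the cytosol 9 of 29 chaperone and hydrophilin genes rose and 9 fell, shares near those of all rows, and 5 fell without WT replicate 2 or without replicate 1 labelled epl1∆ sds3∆. The small heat-shock gene HSP26 had 458, 534 and 703 RPKM in the libraries labelled epl1∆ sds3∆ against 57.1, 62.3 and 108 RPKM in the WT libraries, and the inducible Hsp70 gene SSA3 rose by 1.94. The constitutive Hsp70 gene SSA2 fell to 312 ± 28.4 RPKM, against 718 ± 193 RPKM in the WT libraries. SSA2 is a close copy of SSA1, so its reads may be split between them. Of 27 antioxidant genes 9 rose and 9 fell, again near the shares of all rows, with the sulfiredoxin gene SRX1 at 2.76 and the peroxiredoxin gene DOT5 at -2.25.

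Of 26 ergosterol genes 12 fell and 5 rose (median -0.20), and without WT replicate 2 the number rising was 10, and with RPKM as deposited 1. ERG28, a scaffold of the C-4 demethylation enzymes, had 138, 139 and 162 RPKM in the libraries labelled epl1∆ sds3∆ against 310, 376 and 384 RPKM in the WT libraries, and ERG26 fell by 1.26. Of 26 fatty acid and phospholipid genes 10 fell and 4 rose (16 and 0 with RPKM as deposited, and 6 and 4 without WT replicate 2 or replicate 3 labelled epl1∆ sds3∆), ELO1 falling by 1.13. At the cell surface, QDR2, a drug and potassium antiporter, had 50.7, 55.0 and 59.4 RPKM in the libraries labelled epl1∆ sds3∆ against 5.86, 7.48 and 6.29 RPKM in the WT libraries. Its neighbour and paralog QDR1 moved the other way, to 2.62 ± 0.523 RPKM against 8.02 ± 0.550 RPKM. Of 41 cell wall genes 15 rose and 14 fell, shares near those of all rows (11 and 18 with RPKM as deposited), with NCA3 at 2.83 and the aspartyl protease YPS6 at -3.15.

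Histone genes split by dimer. The H2A and H2B genes all fell: HTB2 had 199, 175 and 224 RPKM in the libraries labelled epl1∆ sds3∆ against 399, 601 and 559 RPKM in the WT libraries, and HTB1, HTA2 and HTA1 fell by 0.54, 0.51 and 0.43. Of the H3 and H4 genes, HHF2 had 871 ± 51.3 against 625 ± 63.7 RPKM and was called higher, a call lost with RPKM as deposited and with quantile normalization. HHF1, HHT1 and HHT2 did not pass, with log2 fold changes of 0.20, 0.32 and 0.04. The centromeric H3 gene CSE4 rose by 0.93. Copies of a histone gene are nearly alike in sequence, so the split between copies is uncertain.

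Among chromatin complexes, few subunit genes changed by 2-fold. Of the 13 NuA4 genes 4 fell, EPL1 included, and 2 rose (30.8% and 15.4%, against 30.0% and 30.1% of all rows). ARP4 and EAF1 fell by 0.54 and 0.49 (with RPKM as deposited 6 fell and none rose). YNG2, a piccolo subunit along with Esa1 and Epl1, did not pass (10.1 ± 0.369 against 9.15 ± 0.982 RPKM). Of 14 Rpd3 complex genes 5 fell and 3 rose. The catalytic subunit RPD3 had 18.1, 18.4 and 20.0 RPKM in the libraries labelled epl1∆ sds3∆ against 27.6, 32.5 and 28.3 RPKM in the WT libraries, and UME1 fell by 0.79. SIN3, the scaffold, rose by 0.54 and UME6, which recruits the complex, by 0.98. Of other acetyltransferase genes, HAT1 and RTT109, both for newly made histones, fell by 1.07 and 0.65, and SAS2, which acts at boundaries of silent chromatin, rose by 1.05. SIR1 fell by 0.72. None of these genes tells how much acetylation the chromatin held.

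Genes near chromosome ends fell. Within 10 kb of an end, 33 of 39 tested protein-coding genes fell and 1 rose, FET4 by 0.30 (median -0.90). Between 10 and 20 kb 42 of 81 fell and 11 rose (median -0.41), and between 20 and 30 kb 54 of 117 fell and 27 rose (median -0.22). Beyond 100 kb 1297 of 4234 rose and 1276 fell, with a median of 0.00. The COS genes, a family of membrane proteins next to telomeres, fell in 9 of 11 tested members (median -1.18). COS1 had 22.4, 19.9 and 23.0 RPKM in the libraries labelled epl1∆ sds3∆ against 48.8, 59.1 and 60.0 RPKM in the WT libraries, and COS2 and COS9 fell by 1.77 and 1.58. COS10 and COS111 did not pass, with 23.6 ± 2.18 against 22.4 ± 1.91 RPKM and 31.4 ± 3.38 against 29.8 ± 4.84 RPKM. COS genes, YPS6 with YPS5, and the AAD genes (4 of 6 fell) are families of similar sequence, so reads may be shared within each. The telomerase RNA TLC1 fell by 1.11.

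**Figure D5:**
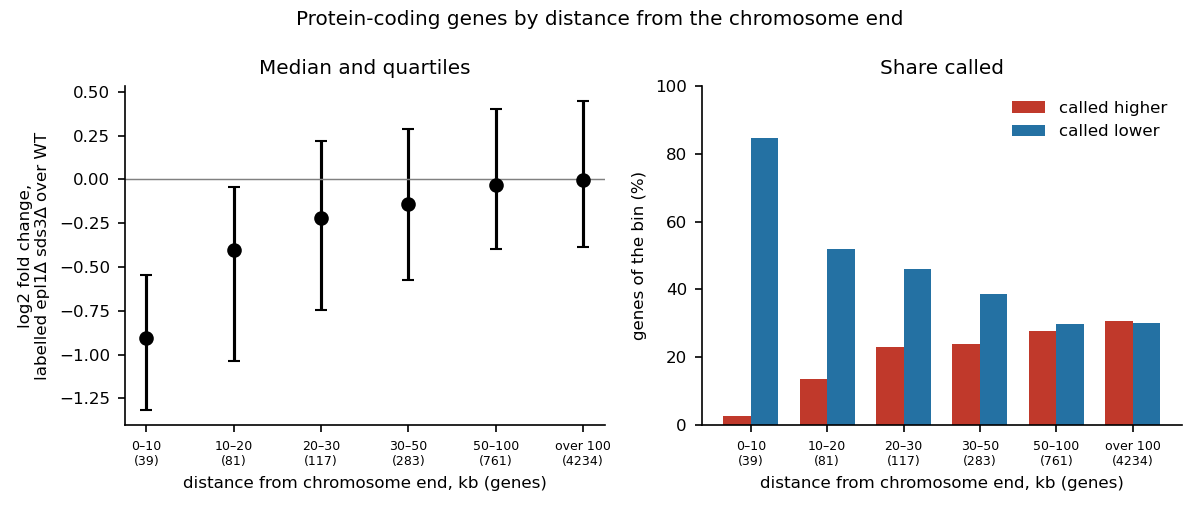
Left, median and quartiles of the log2 fold change (labelled epl1∆ sds3∆ over WT) of tested protein-coding genes in 6 bins of distance from the nearest chromosome end. Right, the share of each bin called higher and lower, in percent, with numbers of genes in brackets. The share called lower is 84.6% within 10 kb and 30.1% beyond 100 kb.

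Several genes of meiosis, which haploid cells in growth medium keep off, rose. Of 28 early meiotic genes 21 passed the expression minimum, 14 rising and 1 falling. That minimum averages all 4 groups, so genes nearly silent in WT passed only through the groups where they are high, and the count does not stand for the whole list. The 14 rising include UME6, the gene of the repressor itself, at 0.98. RIM4, an RNA-binding protein of early meiosis, had 32.2, 51.3 and 40.2 RPKM in the libraries labelled epl1∆ sds3∆ against 3.59, 5.51 and 4.40 RPKM in the WT libraries (log2 fold change 2.93). MND1, a recombination factor, had 7.39 ± 0.795 RPKM in the libraries labelled epl1∆ sds3∆ and 0.212 ± 0.187 RPKM in the WT libraries, and IME2, the meiotic kinase, rose by 1.87. SPO11, which cuts DNA to start recombination, went the other way and fell to 3.62 ± 0.115 RPKM, against 9.37 ± 1.35 RPKM in the WT libraries. Members below the minimum, such as SPO13 (1.45 against 0.253 RPKM as deposited), were not tested. RIM4 apart, levels stayed under 10 RPKM in the libraries labelled epl1∆ sds3∆.

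The windows before RIM4, chrVIII:56349-56648 (plus strand), and ACS1, chrI:45023-45322 (minus strand), are printed because each holds the core of URS1 (GGCGGC, in capitals on either strand), the element bound by Ume6. RIM4 has 1 match, 282 to 277 bases before the start codon, and ACS1 has 2, at 225 to 220 and 128 to 123.
RIM4: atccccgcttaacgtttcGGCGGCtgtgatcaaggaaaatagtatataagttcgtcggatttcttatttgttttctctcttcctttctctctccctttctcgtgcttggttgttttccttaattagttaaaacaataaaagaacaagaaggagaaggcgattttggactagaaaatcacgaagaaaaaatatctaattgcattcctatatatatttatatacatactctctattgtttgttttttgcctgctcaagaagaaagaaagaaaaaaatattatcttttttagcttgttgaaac
ACS1: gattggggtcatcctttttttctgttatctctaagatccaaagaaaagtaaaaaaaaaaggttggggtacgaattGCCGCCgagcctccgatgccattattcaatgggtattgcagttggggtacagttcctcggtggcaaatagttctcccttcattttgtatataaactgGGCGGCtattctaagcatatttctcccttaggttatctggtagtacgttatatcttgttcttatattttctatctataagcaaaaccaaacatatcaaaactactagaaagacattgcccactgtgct

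The core was in 10 of 21 windows of the early meiotic list, in 8 of 11 of the COS list and in 5.21% of all windows. Holders thus include genes that rose and genes that fell: over all tested genes 111 of 278 rose and 69 fell (median 0.17), and outside the early meiotic and COS lists 103 of 260 rose and 61 fell (median 0.17). Of 30 middle and late sporulation genes 19 passed the same minimum, with the same limit, and 10 rose and 3 fell, SPS100, of the spore wall, rising by 2.35.

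The α-specific mating genes fell, in cells labelled MATα. The α-factor gene MF(ALPHA)1 had 270, 252 and 195 RPKM in the libraries labelled epl1∆ sds3∆ against 692, 700 and 581 RPKM in the WT libraries, and all 4 α-specific genes fell. Of 22 haploid-specific and pheromone-pathway genes 9 fell and 3 rose (11 and 1 with RPKM as deposited), HO falling to 1.74 ± 0.441 RPKM against 9.62 ± 2.56 RPKM. Of 5 tested a-cell genes MFA1 rose (3.61, 6.55 and 6.09 RPKM in the libraries labelled epl1∆ sds3∆ against 0.00, 2.02 and 0.00 RPKM in the WT libraries) and STE6 fell by 0.90. MFA1, at 0.00 RPKM in WT replicates 1 and 3, passed the expression minimum with the help of the deletion groups, and its values rest on few reads. The list's other a-cell genes that were tested did not pass. α markers stayed abundant in both groups and the a markers stayed under 10 RPKM.

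Cell cycle and DNA repair genes moved in both directions, by smaller amounts. Of 34 genes of G1, S phase and replication 12 rose (35.3%) and 7 fell (20.6%), against 30.1% and 30.0% of all rows, with a median of 0.06. With RPKM as deposited 8 rose and 12 fell, and 3 fell without WT replicate 1 and 4 without replicate 3 labelled epl1∆ sds3∆. The rises were led by the G1 cyclin genes CLN2 (48.1, 49.9 and 44.8 RPKM in the libraries labelled epl1∆ sds3∆ against 24.0, 21.4 and 17.0 RPKM in the WT libraries) and PCL1, which rose by 1.09. The ribonucleotide reductase genes split, RNR1 falling by 0.75 and RNR4 rising by 1.00. Of 24 DNA damage genes 11 rose and 5 fell (5 and 5 with RPKM as deposited), with DUN1, the checkpoint kinase that acts on RNR, at 0.84 and the photolyase PHR1 at -1.93. Autophagy genes fell in 10 of 25 cases and rose in 5, with log2 fold changes from -2.12 to 1.34. ATG8 was at -1.02 and the scaffold ATG11 at 1.34.

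Some of the largest single changes lay outside these groups. IRC15, a microtubule-associated protein, had 25.3 ± 2.78 RPKM in the libraries labelled epl1∆ sds3∆ against 3.27 ± 1.10 RPKM in the WT libraries. CYB2, the lactate dehydrogenase of mitochondria, had 6.69 ± 1.93 against 48.7 ± 22.3 RPKM, and NNR1, which repairs damaged NAD(P)H, had 9.79 ± 0.704 against 77.6 ± 13.1 RPKM. The log2 fold changes were 2.65, -2.63 and -2.85, with no overlap between groups. The cell wall gene HPF1 fell by 2.46.

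Some genes beside EPL1 and SDS3 changed. Beside EPL1, BUD27 had 4.23, 5.01 and 4.13 RPKM in the libraries labelled epl1∆ sds3∆ against 0.959, 0.594 and 0.463 RPKM in the WT libraries, and BST1 on the other side did not pass. Beside SDS3, KTR7 rose to 83.6 ± 0.687 RPKM, against 19.3 ± 1.28 RPKM, and CAB2 fell by 1.23. Farther out, GYP8 fell by 0.55 and GAT1 rose by 0.34 near EPL1, the GAT1 call being lost under 5 alternatives, and STE2 and FRS2 did not pass (-0.34 and -0.03). Near SDS3, AIM19 fell by 1.05, AIR1 rose by 1.43 and YIL086C did not pass (0.67). These farther genes were chosen after their values were seen.

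Against the other deletion groups few genes differed. These fold changes compare deletion libraries directly, while the WT libraries enter the shared fit and the scaling factors. Both comparisons use the same 3 libraries labelled epl1∆ sds3∆, so a row called in both is not found independently. Against the libraries labelled esa1∆ sds3∆ 11 of 5956 rows were called (0.185%), and 282 (4.73%) had an unadjusted p under 0.05. Against those labelled esa1∆ epl1∆ sds3∆ 8 were called (0.134%), and 388 (6.51%) had an unadjusted p under 0.05. A row that was not called is not shown to be equal. ESA1 and HIS3, which differ by construction, were called in both, EPL1 in the first.

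YHK8, a presumed drug transporter of the plasma membrane, differed most among the other genes. It had 14.8, 14.1 and 14.4 RPKM in the libraries labelled epl1∆ sds3∆. The libraries labelled esa1∆ sds3∆ had 0.0735, 0.303 and 0.394 RPKM, those labelled esa1∆ epl1∆ sds3∆ 0.354, 0.232 and 0.556 RPKM, and the WT libraries 1.60, 2.90 and 2.19 RPKM. The libraries labelled epl1∆ sds3∆ were thus above all others, with log2 fold changes of 3.63 over esa1∆ sds3∆, 3.49 over esa1∆ epl1∆ sds3∆ and 2.28 over WT (limma adjusted p of 1.93e-07, 3.12e-07 and 7.29e-07). APD1 was lower than in both other deletion groups, with 30.8 to 40.2 RPKM in the libraries labelled epl1∆ sds3∆ against 67.4 to 79.9 RPKM in those labelled esa1∆ sds3∆ and 66.7 to 77.6 RPKM in those labelled esa1∆ epl1∆ sds3∆. The log2 fold changes were -1.04 and -0.99.

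ATG19, a receptor of selective autophagy, had 10.1, 11.5 and 8.23 RPKM in the libraries labelled epl1∆ sds3∆ against 31.3, 30.8 and 32.9 RPKM in those labelled esa1∆ sds3∆ (log2 fold change -1.59). In the libraries labelled esa1∆ epl1∆ sds3∆ it had 13.2, 10.2 and 9.23 RPKM, and it was not called against these (-0.11). It was thus low in both groups labelled epl1∆. LEU1 and LEU2, for leucine synthesis, showed the same order, 0.72 and 0.62 lower on the log2 scale than in the libraries labelled esa1∆ sds3∆ and not called against those labelled esa1∆ epl1∆ sds3∆ (0.13 and -0.03). AQY3 and YBR137W were higher than in both other deletion groups, by 1.08 and 0.96 over esa1∆ sds3∆ and by 1.10 and 1.04 over esa1∆ epl1∆ sds3∆. The call of each was lost when single libraries were left out. YSA1, lower by 0.57 than in the libraries labelled esa1∆ sds3∆, and TPO1 and YMR315W, higher by 0.74 and 0.64 than in those labelled esa1∆ epl1∆ sds3∆, complete the called rows and were lost likewise.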

How the data were processed

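Libraries were stranded and made from hot-phenol RNA after DNase treatment and rRNA depletion, per the labels' protocols. The authors deposited RPKM per gene; per the submitters' processing notes cutadapt, Bowtie 0.12.2 and STAR were used, and the counting program and its strand setting are not given in the sources used here. Multiplied by gene length, at least 99.7% of values under 5000 reads were whole reads within 0.01. Here RPKM was divided by median-of-ratios factors, and rows averaging 1 RPKM or more across 12 libraries were tested with limma 3.58.1 (R 4.3.3) on log2(RPKM + 1), all 4 groups in 1 fit with a mean-variance trend and no block, Benjamini-Hochberg adjustment and a threshold of 0.05. Only the limma test was tried on simulated data, with independent noise and few changed rows, and not the scaling factors or the expression minimum. Names came from the R64 annotation, matching 6048 rows by locus tag and 114 by name. Members, lists and motifs were chosen with earlier results of these data known. Named genes were EPL1, SDS3, ESA1, their neighbours and markers, the 15 rows per direction with the largest change (at least 10 RPKM in the higher group, groups not overlapping), up to 4 called members per list in the main direction and 2 in the other, and called rows of the other comparisons. Further members are named to complete a list, after their values were seen.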

Additional observations from a re-analysis of the deposited data

How the results depend on the processing

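With RPKM as deposited, without factors between libraries, 1171 rows rose and 2560 fell, against 1792 and 1785 with them. The other alternatives kept the counts within 1.5 times: 1580 and 1556 with only the 6 libraries in the fit, 1284 and 1206 at a minimum of 10 RPKM, and 1773 and 1789 with voom on the recovered reads. Leaving out 1 library gave 1642 to 1767 rising and 1602 to 1740 falling. The rows called against the libraries labelled esa1∆ sds3∆ numbered 7 to 8 with 1 library left out (11 with all), and those against esa1∆ epl1∆ sds3∆ 4 to 6 (8 with all). Of 332 named genes 328 were called, 285 of them under every alternative that tested them and 43 not under at least 1, and no named gene reversed. The replicate number as a block gave 1875 rising and 1856 falling, and 13 and 9 rows against the other deletion groups. Same-numbered libraries of the 2 groups had correlations of deviations of 0.289, -0.0798 and 0.260. Libraries of different numbers were not compared in this way, so these values do not decide whether the numbers mark pairs. The main fit did not take them as pairs. Precision rests on 3 libraries a group. At the depth of the libraries, genes near 1 RPKM rest on few reads, and values at 0 are limits.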
